A study of Mus musculus with 8 samples.

Results

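Polyadenylated RNA of Hepa 1-6 cells was sequenced in 4 samples that cross an shRNA with a replicate number. The comparison described here is replicate 2 against replicate 1 within the same shRNA arm, over all genes, and it uses the 4 mRNA samples of the 8 samples in the series. Its members are 1 control and 1 Kap1 KD sample of each replicate number, and the count table lists 21915 genes. Hepa 1-6 is a mouse hepatoma line, grown in DMEM with 10% serum. Control cells carried the empty pLKO lentiviral vector and Kap1 KD cells the same vector with an shRNA against Kap1, the corepressor also called TRIM28. All 4 samples were therefore transduced, 5 days before collection per the labels (another field of the labels speaks of transfection with a plasmid), and the methods state puromycin selection. The cells are an established line, and no clone, passage or culture day is given.

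In each arm 1 sample has the number 2 in its title and the other has no number, and the latter was taken as replicate 1. The labels do not say that the numbers stand for separate cultures, so p-values do not measure a spread between cultures. The spread they use is pooled over genes, as stated below, and may be technical. Whether the replicate number marks a culture, a day or a library preparation cannot be told apart in this design. A hepatoma line keeps part of the hepatocyte programme, in which the nuclear receptor HNF4A drives genes for plasma proteins and metabolic enzymes. Cultured epithelial cells also express keratins, lysosomal hydrolases and inducible inflammatory genes, whose levels are known to follow density, nutrients and cytokine signals.

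The libraries held between 41566888 and 53605115 counts, and between 18753 and 19319 genes had a count. The share of counts on mitochondrially encoded genes was 3.70% to 3.76% in the replicate 1 libraries and 2.46% to 2.70% in the replicate 2 libraries. One library, Kap1 KD replicate 2, stood apart in a few genes. It had 6905 CPM (counts scaled to library size with TMM factors) on Lars2 and 298 on AY036118. The other 3 libraries had 239 to 286 and 18.4 to 20.9. Kap1 KD replicate 2 also had 282 CPM on mt-Rnr1 and 200 on mt-Rnr2, the mitochondrial ribosomal RNAs. For these the other 3 libraries had 75.5 to 95.2 and 70.7 to 73.4. Actb, the cytoplasmic actin, had 2492 and 2599 CPM in replicate 1 (control and Kap1 KD, an order kept throughout) and 3677 and 3650 in replicate 2. Hnf4a had 110 and 85.4 CPM in replicate 1 and 203 and 149 in replicate 2, so the hepatocyte factor was detected in every library. Of 12 hepatocyte markers 8 passed the filter on low counts, and Alb stayed between 441 and 1580 CPM while Ttr, Fga and Ahsg had at most 0.222 CPM in every library.

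Replicate 2 differed from replicate 1 in 3748 of the 14142 genes tested, at a fold change of at least 1.5 and an adjusted p under 0.05 by the quasi-likelihood test of edgeR, with the shRNA arm as its block. Of these, 1284 were higher and 2464 lower in replicate 2. A stricter call, used below and referred to as called in both arms, also asks for a 1.5-fold difference in the same direction within the control arm and within the Kap1 KD arm. It was met by 833 genes higher (5.89% of those tested) and 2058 genes lower (14.6%). The same model called 631 genes between Kap1 KD and control cells, a count that was 234 with DESeq2 and 0 in edgeR without the replicate block (185 genes at an unadjusted p under 0.05). Regardless of any call, both replicate 2 libraries lay above both replicate 1 libraries in 35.5% of tested genes and below both in 37.2%. Across genes, the replicate difference in the control arm and that in the Kap1 KD arm had a Pearson r of 0.796 and the same sign in 86.2% of genes, although genes are not independent replicates. With 4 samples the model leaves 1 residual degree of freedom and all genes shared 1 dispersion trend. The standard errors below thus rest on that trend rather than on each gene's own spread. Lars2 differed by 0.12 in the control arm and 4.855 in the Kap1 KD arm, yet had a standard error of 0.08. A small p-value therefore does not show that the arms agree.

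**Figure D1:**
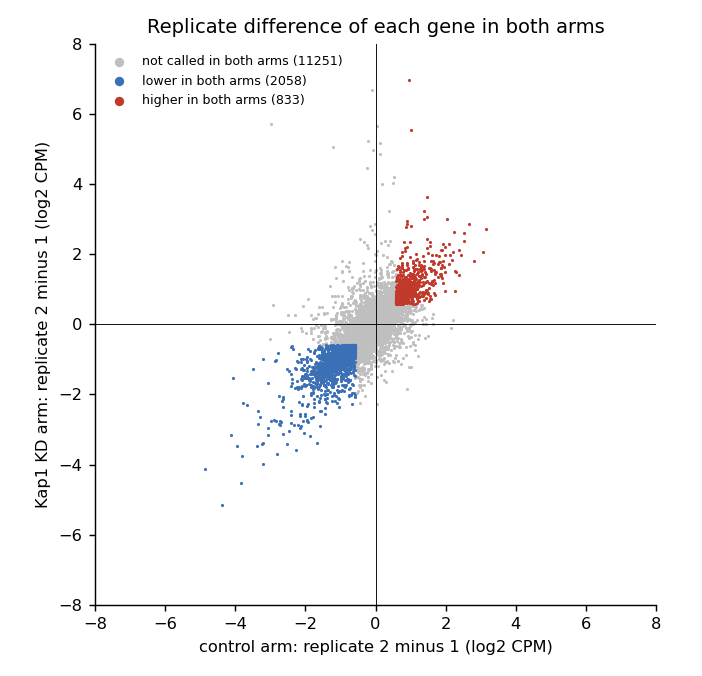
Each point is 1 of the 14142 tested genes, placed by its difference between replicate 2 and replicate 1 (log2 CPM) in the control arm on the x axis and in the Kap1 KD arm on the y axis. The 833 genes called higher in both arms (red) and the 2058 called lower in both arms (blue) lie in opposite corners, and a few grey points combine values above 4 in the Kap1 KD arm with control values near or below 0.

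The replicate difference followed the base composition of the genes. When the tested genes were ordered by the GC content of their exons and divided into 5 groups of equal size, the median log2 difference was -0.66, -0.24, 0.04, 0.26 and 0.39 from the lowest to the highest GC content. The 2 arms gave like medians, -0.66 and -0.64 in the lowest group and 0.31 and 0.47 in the highest. In the lowest group, at 44.2% GC or less, 48.1% of genes were called lower in both arms and 0.814% higher. In the highest group, above 55.4% GC, 14.3% were called higher and 2.02% lower. Genes called higher had a median GC content of 55.3% and genes called lower 42.4%. Between Kap1 KD and control cells the same 5 groups had medians from -0.13 to 0.10, in the same order. Length went along with it less strongly, with a median of -0.18 in the longest of 5 groups and between -0.03 and 0.10 in the others.

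**Figure D2:**
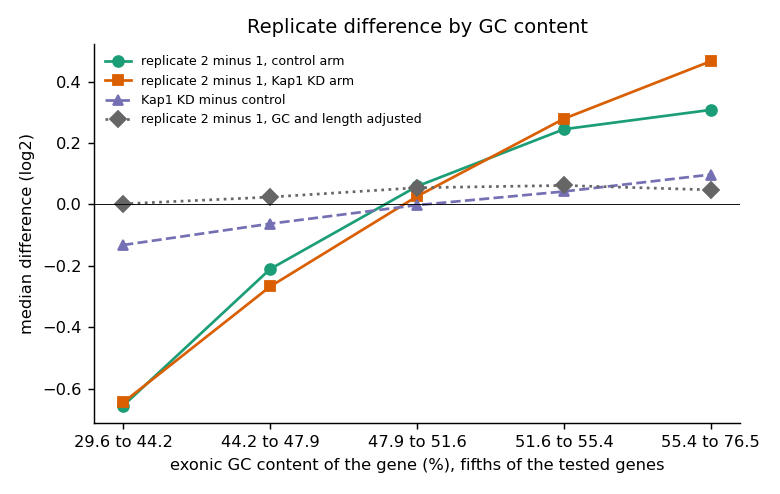
Median log2 difference (y axis) in 5 groups of genes of equal size by exonic GC content (x axis, % GC), for replicate 2 minus replicate 1 in each arm, for Kap1 KD minus control, and for the replicate difference after adjustment. Both arms climb from about -0.65 to 0.31 and 0.47, Kap1 KD minus control from -0.13 to 0.10, and the adjusted values lie between 0.00 and 0.06.

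A second fit therefore carried an offset per library for GC content and exonic length (loess), and its values are given beside those of the first fit as "adjusted". In this fit, with GC content and length known for 14118 genes (99.8% of those tested), 565 genes were called higher in both arms (4.0%) and 671 lower (4.75%). Of the genes called in both arms by the first fit, 358 of the 833 higher and 564 of the 2058 lower were also called by the adjusted fit. The offsets remove any change that genes of like GC content and length share, whatever its origin, and what part of it is technical was not tested.

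The adjustment acts on GC content and length over all exons, and stretches of coding sequence from 4 genes are printed here as examples. In the order printed, the stretches hold 38.9%, 53.3%, 80% and 41.1% GC, which can differ from the content of the whole gene. Each is the middle of the longest coding exon of the gene, 90 bases of mm9 read 5′ to 3′ on the plus strand, on which all 4 genes lie, with G and C in capitals. Psmc6, a proteasome ATPase subunit, and Map1lc3a, an autophagosome protein, had GC contents of 36.2% and 63.6% over all their exons and changed by -0.99 and 0.86 on the log2 scale, against -0.02 and 0.45 after adjustment. Klf2, a Krüppel-like transcription factor, and Ccl2, a monocyte chemoattractant, changed against the trend and by more after adjustment, from -1.94 to -2.37 at 61.6% GC and from 1.81 to 2.15 at 45.0% GC.
Psmc6, exon 9, chr14:45960465-45960554: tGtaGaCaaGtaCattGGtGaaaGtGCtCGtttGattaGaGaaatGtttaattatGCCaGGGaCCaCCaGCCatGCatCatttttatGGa
Map1lc3a, exon 4, chr2:155103246-155103335: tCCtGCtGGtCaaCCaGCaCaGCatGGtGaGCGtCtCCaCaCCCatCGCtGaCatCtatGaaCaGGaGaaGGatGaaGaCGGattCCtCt
Klf2, exon 2, chr8:74843688-74843777: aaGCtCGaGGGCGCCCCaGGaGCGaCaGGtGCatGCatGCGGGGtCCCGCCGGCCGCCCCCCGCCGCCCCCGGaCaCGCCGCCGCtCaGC
Ccl2, exon 3, chr11:81850508-81850597: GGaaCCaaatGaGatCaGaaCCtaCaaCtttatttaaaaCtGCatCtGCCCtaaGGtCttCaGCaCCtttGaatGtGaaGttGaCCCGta

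Among protein-coding genes with a mean of at least 5 CPM, the 10 largest increases and the 10 largest decreases called in both arms were all called again after adjustment. Before adjustment their folds were 2.84 to 5.56 and 3.85 to 23.4. Rgs16, a regulator of G protein signalling (chromosome 1, 155587479 to 155592598 in mm9, the build of all gene positions here), had 18.8 and 21.0 CPM in replicate 1 and 97.7 and 92.0 in replicate 2. The gene was thus near 20 CPM in both replicate 1 libraries and over 90 in both replicate 2 libraries, a log2 difference of 2.25 (standard error 0.08, adjusted p = 4.56e-148). Sprr1b, a precursor of the cornified envelope of skin, had the largest difference, from 1.90 and 3.71 CPM to 9.09 and 23.3 CPM (log2 2.48, standard error 0.13). Its Kap1 KD samples lay above the control samples of the same replicate. Sprr1b does not stand for its family, which was grouped after the values were seen. Of 6 Sprr genes tested, it was the only 1 called higher, and 3 were called lower, in each fit (median -1.08, adjusted -0.54). Ccl2 (chromosome 11, 81849073 to 81850955) went from 6.19 and 9.11 CPM to 24.2 and 28.7 CPM. Apln, which encodes the peptide ligand apelin, Nbl1, which encodes a BMP antagonist, Col6a1, a chain of collagen VI, Ano1, a chloride channel, and Mmp10, a matrix metalloproteinase, rose by 1.60 to 1.94 on the log2 scale. Cdhr2, a protocadherin of microvilli, went from 4.76 and 21.1 CPM to 11.9 and 65.8 CPM, and its replicate groups overlap because the Kap1 KD samples were higher than the controls. Within each arm it was more than 1.5-fold higher in replicate 2.

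The decreases were larger. Ceacam1, a cell adhesion receptor of epithelia (chromosome 7, 26246721 to 26262644), had 20.4 and 16.8 CPM in replicate 1 and 0.665 and 0.919 in replicate 2, from 1134 and 715 counts down to 33 and 43. This is a log2 difference of -4.55 (standard error 0.16, adjusted p = 5.71e-171), and -4.42 after adjustment. Its neighbour Ceacam2, a close paralogue with which reads can be shared, changed by -3.99, so the values of the pair are uncertain individually. Krt80, a keratin of differentiating epithelia (chromosome 15, 101177875 to 101200556), had 106 and 96.8 CPM in replicate 1 and 12.6 and 12.5 in replicate 2, a log2 difference of -3.01 (standard error 0.09, adjusted p = 4.58e-241). The libraries of each replicate were close to each other for both genes and far from those of the other replicate. Aspa, an aspartoacylase, fell from 15.3 and 12.1 CPM to 1.47 and 1.65, and Klf2 fell from 15.5 and 17.9 CPM to 2.94 and 6.09. Serpinb11, a serpin, Dmkn, the epidermal secreted protein dermokine, Pof1b, an actin-binding protein of epithelia, Sult1c2, a sulfotransferase, Rev3l, the catalytic subunit of DNA polymerase zeta, and Ces2g, a carboxylesterase, changed by -2.00 to -2.83 on the log2 scale. The change of Pof1b went from -2.45 to -1.33 and that of Rev3l from -2.02 to -1.29 after adjustment, the genes of this group with GC contents of 36.2% and 41.0%.

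**Figure D3:**
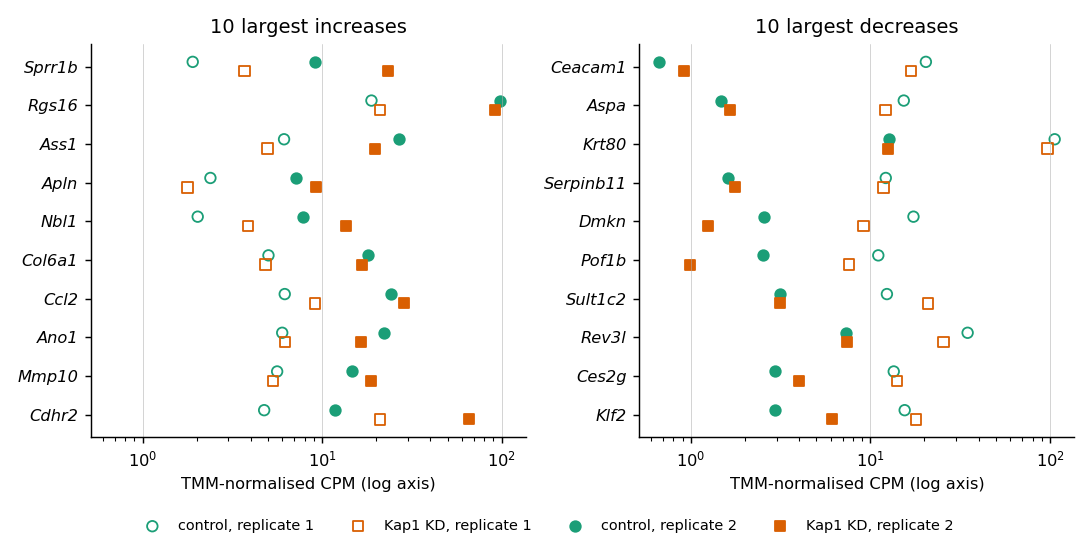
TMM-normalised CPM (x axis, log scale) of the 10 largest increases (left) and 10 largest decreases (right) in each of the 4 samples, with open symbols for replicate 1, filled symbols for replicate 2, circles for control and squares for Kap1 KD. Filled and open symbols are apart for every gene except Cdhr2, where the filled control circle (11.9) lies below the open Kap1 KD square (21.1).

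Gene lists were then read for each programme by how many members were called in both arms, against 5.89% higher and 14.6% lower over all tested genes (4.0% and 4.75% after adjustment). In fits that leave out 1 sample, only 1 arm keeps both replicates. A call there asks for the fold within that arm alone and is looser than a call in both arms. Lysosomal genes were higher in replicate 2. Of 27 tested, 8 were called higher and 0 lower, with a median log2 difference of 0.45 in the control arm and 0.46 in the Kap1 KD arm. After adjustment 4 were called higher and 0 lower, the median was 0.42, and 27 of 27 had a value above 0, against 55% of all tested genes. Hexa, the alpha subunit of beta-hexosaminidase, went from 48.8 and 46.4 CPM to 97.5 and 86.8 CPM. Neu1, the lysosomal sialidase, went from 64.1 and 63.6 CPM to 113 and 116 CPM. Both lay about 0.9 log2 units higher in replicate 2 and were called in both fits (adjusted differences 0.71 and 0.62). Ctsa, cathepsin A, Ctsd, cathepsin D, Gaa, the acid alpha-glucosidase, Grn, progranulin, and Atp6v0d1, a subunit of the proton pump, rose by 0.64 to 0.85 in the first fit and had adjusted values of 0.33 to 0.55. Ctsl, cathepsin L, and Tpp1, a lysosomal peptidase, were called only after adjustment, at 0.80 and 0.64. Leaving out 1 sample at a time gave 7 to 9 called higher.

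Many lysosomal genes carry the palindrome CACGTG near their start, the core that MiT/TFE factors bind. In the 250 bases before the start, this motif was found for 7 of the 20 lysosomal genes with a RefSeq promoter sequence. The promoter build is GRCm38.p6, which differs from the build of the counts. A gene was counted when any of its promoters matched. Over all 32851 promoters in that set, each counted singly, the share was 6.02%, so the gene and promoter figures are unlike measures. The motif was present in 3 of the 7 with a promoter sequence among the 8 genes called higher, Ctsa, Ctsd and Gaa. The 2 cathepsin promoters are shown 5′ to 3′ on the gene's strand with the motif in capitals. The match is a description of letters, and no factor was measured.
Ctsa, chr2:164833523-164833772, plus strand: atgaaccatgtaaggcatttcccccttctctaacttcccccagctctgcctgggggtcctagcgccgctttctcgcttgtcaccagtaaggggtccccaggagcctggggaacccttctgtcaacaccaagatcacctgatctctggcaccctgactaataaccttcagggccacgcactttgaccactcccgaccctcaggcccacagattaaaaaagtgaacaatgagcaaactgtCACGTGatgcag
Ctsd, chr7:142387828-142388077, minus strand: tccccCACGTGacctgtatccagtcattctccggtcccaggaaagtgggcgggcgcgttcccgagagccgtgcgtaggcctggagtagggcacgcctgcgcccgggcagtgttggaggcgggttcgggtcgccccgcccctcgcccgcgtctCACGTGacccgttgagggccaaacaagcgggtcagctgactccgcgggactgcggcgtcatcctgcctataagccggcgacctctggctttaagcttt

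Enzymes of the urea cycle and amino acid catabolism were also higher, with 6 of 11 tested genes called higher and 0 lower, a median of 0.68, and 4 called higher after adjustment (median 0.53). Without control replicate 1 the first fit called 3, and leaving out 1 of the other samples gave 4 to 6. Ass1, argininosuccinate synthase (chromosome 2, 31325727 to 31376192), had 6.14 and 4.98 CPM in replicate 1 and 26.7 and 19.8 in replicate 2, a log2 difference of 2.06 (standard error 0.11, adjusted p = 2.07e-73). Cbs, cystathionine beta-synthase, went from 1.78 and 2.09 CPM to 4.37 and 6.31 CPM, and Prodh, proline dehydrogenase, from 5.53 and 4.46 CPM to 9.78 and 9.23 CPM. All 3 genes, together with the low-level Nags, the enzyme that makes the activator of the urea cycle, had both replicate 2 libraries above both replicate 1 libraries, as did 35.5% of all tested genes, and were called in both fits. Asl, argininosuccinate lyase, rose by 0.61, with an adjusted value of 0.43. Of the 11 tested genes 9 lay above 0 in the first fit. Oat, the most expressed, did not, with 242 and 240 CPM in replicate 1 and 234 and 216 in replicate 2. DESeq2 called 4 of 11 higher, and with a mean of at least 1 CPM 3 of 8 were called higher. The other 11 listed genes were not tested, among them Cps1, Otc and Arg1, with 3, 1 and 6 counts over all 4 libraries.

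Inflammatory and NF-kB target genes had 6 of 17 tested called higher and 1 lower, a median of 0.54, and again 6 and 1 after adjustment (median 0.36). Besides Ccl2, Vcam1, an adhesion molecule for leukocytes, went from 12.8 and 16.5 CPM to 22.2 and 28.8 CPM and Il1rn, the interleukin 1 receptor antagonist, from 3.25 and 2.46 CPM to 8.47 and 4.53 CPM. Ccl20, a chemokine, went from 2.93 and 6.74 CPM to 4.53 and 12.9 CPM, so that its control replicate 2 lay below its Kap1 KD replicate 1. These 4 genes were called in both fits, with larger values after adjustment (1.44 to 2.15 against 0.80 to 1.81). Icam1 and Relb, the adhesion molecule and the NF-kB subunit, rose by 0.92 and 0.78 and had adjusted values of 0.63 and 0.46. Nfkbiz, a nuclear regulator of NF-kB, changed by -0.92 (adjusted -0.85), and Nfkbia, the inhibitor induced by NF-kB, by 0.24, below the fold set for a call. This list depends on single samples: 2 genes were called higher without control replicate 1, 9 without control replicate 2, and 4 without either Kap1 KD sample.

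Genes of antigen presentation were higher in part. Of 11 tested, 5 were called higher and 0 lower (median 0.55), and 2 after adjustment (median 0.39), with 3 without Kap1 KD replicate 1 and 4 without any 1 of the other samples. Psmb8, a catalytic subunit of the immunoproteasome, went from 4.0 and 3.92 CPM to 8.18 and 8.10 CPM. Tap2, a subunit of the peptide transporter, went from 1.62 and 1.24 CPM to 3.22 and 3.48 CPM. Both were called in each fit, while Tap1, the other subunit, and Tapbp, which tethers it to class I molecules, rose by 0.87 and 0.75 with adjusted values of 0.61 and 0.42. Of 30 interferon-induced genes 1 was called higher and 5 lower (1 and 2 after adjustment), shares near those over all genes, and without control replicate 1 2 were called lower. Mx1, an antiviral GTPase, changed by -1.45.

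Plasma protein genes went both ways. Of 24 tested, 5 were called higher and 3 lower (median 0.38), and 5 and 0 after adjustment (median 0.39). Hpx, hemopexin, went from 55.7 and 49.6 CPM to 142 and 90.7 CPM, C3, the complement component, from 31.8 and 23.4 CPM to 66.3 and 45.4 CPM, and Apoe from 628 and 421 CPM to 1194 and 782 CPM. Alb, albumin, went the other way, from 1580 and 975 CPM to 1037 and 441 CPM (log2 -0.88, adjusted -0.75), and its groups overlap because the Kap1 KD samples were lower than the controls. Without control replicate 2 the list's median was -0.07, with 3 genes called higher and 2 lower, and without Kap1 KD replicate 2 it was 0.69, with 8 and 0. Without control replicate 1, 3 were called higher and 0 lower, and without Kap1 KD replicate 1, 2 and 1. The fits that leave out 1 sample cannot carry the shRNA block, so differences between Kap1 KD and control cells enter them.

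Among the liver-enriched transcription factors, 4 of 19 were called higher and 2 lower (1 and 2 after adjustment). Without Kap1 KD replicate 1 the number higher was 1, and leaving out 1 of the other samples gave 4 to 6. Hnf4a rose by 0.84 (standard error 0.07, adjusted p = 4.85e-31), with an adjusted difference of 0.59 that did not meet the call in both arms. Foxa1, a forkhead pioneer factor, went from 5.71 and 4.55 CPM to 2.18 and 2.20 CPM, and Tbx3, a T-box repressor, from 91.9 and 68.9 CPM to 41.9 and 37.8 CPM. Both were called lower in each fit, so the factors of the list did not move together.

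A set of keratins fell. The keratin family was picked with its values in view, whereas the list of epithelial junctions and keratins had 2 of 17 genes called higher and 1 lower (1 and 1 after adjustment). Of 16 keratins tested, 6 were called lower in both arms and 0 higher (median -0.65), and 9 were called lower after adjustment (median -0.91). Krt7, a keratin of bile duct cells, went from 83.0 and 66.5 CPM to 33.4 and 25.1 CPM, and Krt14, a basal keratin, from 31.1 and 33.3 CPM to 9.03 and 8.53 CPM. Krt19 went from 2.23 and 2.11 CPM to 0.464 and 0.235 CPM. Krt8 and Krt18, the hepatocyte pair, went the other way, with 1057 and 1198 CPM against 1619 and 1749 CPM for Krt8 and 1427 and 1556 CPM against 2011 and 2214 CPM for Krt18. Neither was called (log2 0.58 and 0.50, adjusted 0.26 and 0.20). Krt5 also lay higher, with 17.8 and 17.4 CPM against 25.9 and 22.2 CPM, and was not called (log2 0.445, adjusted 0.12). After adjustment 12 of the 16 keratins lay below 0. Elf3, an epithelial ETS factor, and Klf4, a Krüppel-like factor of epithelial differentiation, changed by -1.59 and -1.41 (adjusted -1.90 and -1.68). These genes and Krt80 thus changed by more after adjustment than before it.

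Several programmes that were lower in replicate 2 were lower to a smaller extent after adjustment. The host genes of snoRNAs, non-coding transcripts that are spliced and broken down after releasing their snoRNAs, had 6 of 8 tested called lower and 0 higher (median -1.01), and 4 after adjustment (median -0.64). Without control replicate 1 the first fit called 2 lower, and leaving out 1 of the other samples gave 6 to 8. Gas5 went from 65.3 and 52.7 CPM to 30.2 and 25.7 CPM and Snhg1 from 12.4 and 8.36 CPM to 4.49 and 3.40 CPM. Annotated snoRNAs went the same way, with 39 of 75 called lower and 0 higher (median -1.08), against 9 and 2 after adjustment (median -0.47). The sequencing selected polyadenylated RNA, which snoRNAs mostly lack, and their median level was 0.436 CPM, so these are small counts. Zinc-finger genes named Zfp, many of them KRAB proteins that recruit KAP1, had 115 of 308 called lower and 2 higher (median -0.41). After adjustment 21 were called lower and 0 higher, at a median of -0.15, and without control replicate 1 the first fit called 38 lower. Without control replicate 2 it called 17 higher and 113 lower. Their median GC content was 45.6%, against 49.8% over all tested genes.

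Mitotic genes differed among themselves. Of 24 tested, 7 were called lower and 0 higher (3 and 0 after adjustment), at a median of -0.18 that became 0.05. Mki67, the proliferation marker Ki-67, went from 360 and 330 CPM to 137 and 132 CPM (log2 -1.36, adjusted -1.09). Cenpe and Cenpf, proteins of the kinetochore, changed by -1.41 and -1.40 (adjusted -0.86 for both). Other genes needed for mitosis did not follow: Cdk1 had 373 and 380 CPM in replicate 1 and 390 and 358 in replicate 2, and Plk1 went from 147 and 163 CPM to 219 and 240 CPM, a log2 difference of 0.57 that is below the call. DNA replication genes had 2 of 29 called lower (0 after adjustment), and 4 without control replicate 1 and 6 without control replicate 2.

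For the mitochondrially encoded genes the direction depended on the adjustment. Of 13 tested, 5 were called lower and 0 higher (median -0.48), while after adjustment 1 was called higher and 0 lower (median 0.28). mt-Nd4, a subunit of respiratory complex I, went from 1948 and 1739 CPM to 976 and 889 CPM, with an adjusted difference of -0.08. Their median GC content was 37.1%, within the lowest of the 5 GC groups. Nuclear-encoded genes of the respiratory chain had 2 of 79 called higher and 2 lower (5 and 0 after adjustment), and cytosolic ribosomal proteins 0 and 1 of 79 in each fit, the one being Rpl23.

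The remaining lists had few calls, or calls in both directions. Of 22 extracellular matrix genes 4 were called higher and 2 lower (3 and 2 after adjustment), and of 19 autophagy genes 4 higher and 1 lower (0 and 1). The autophagy median was 0.19 (adjusted 0.21), with 14 members above 0 and 17 after adjustment. Over all tested genes 49.8% lay above 0, and 55% after adjustment. Metallothioneins and zinc transporters had 3 of 7 called higher and 0 lower, and 0 in either direction after adjustment. Clock genes had 0 of 18 called higher and 3 lower (median -0.27), and 2 lower after adjustment (median -0.29). Per2, a repressor of the clock, was the member called in both fits. Genes of the ATF4 stress response had 1 of 24 called higher and 2 lower (1 and 3 after adjustment). Wnt targets had 0 and 2 of 14 in each fit, and p53 targets 0 and 5 of 22 (1 and 0). The calls of the p53 targets do not describe the list as a whole. Its median was 0.23 (adjusted 0.12), with 14 members above 0 and 19 after adjustment. Cytosolic and mitochondrial chaperones had 0 of 16 called higher and 5 lower (0 and 1), and genes of ribosome biogenesis 1 and 5 of 29 (0 and 0). The median of the ribosome biogenesis genes was 0.15, and -0.02 after adjustment. Glycolysis, aminoacyl-tRNA synthetases, FOXO-responsive genes and TGF-beta targets had 0 calls in each fit. Single samples moved several of these counts. Without control replicate 2, 8 matrix genes, 4 p53 targets and 3 ribosome biogenesis genes were called higher and 4 Wnt targets lower. Without control replicate 1, 2 autophagy genes were called higher, and without Kap1 KD replicate 1, 1 gene of the metallothionein list was called higher and 2 TGF-beta targets lower.

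**Figure D4:**
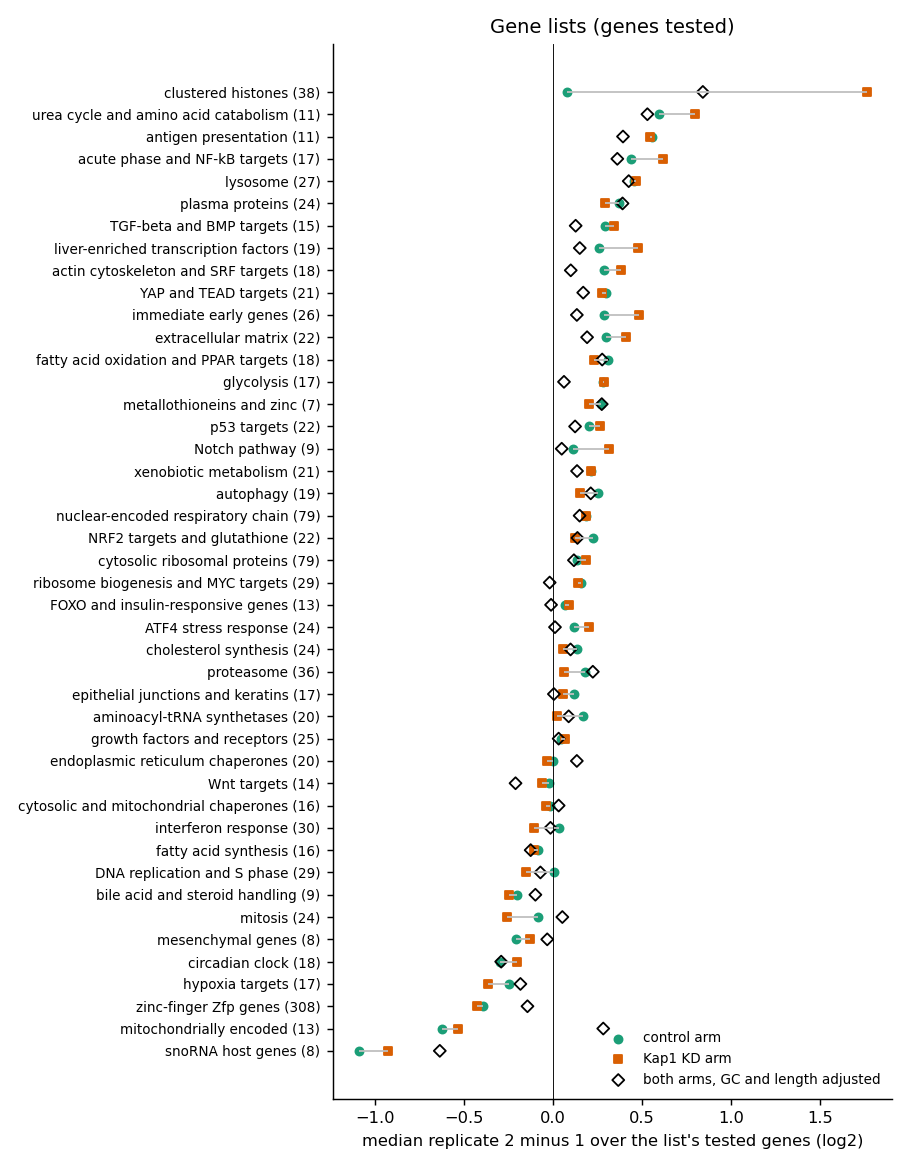
Median difference of replicate 2 minus replicate 1 (x axis, log2) over the tested genes of 44 gene lists (y axis, number tested in parentheses) in the control arm (circles), in the Kap1 KD arm (squares) and after adjustment for GC content and length (open diamonds). The arms lie farthest apart for the clustered histones (0.08 and 1.76), and the diamond of the mitochondrially encoded genes lies above 0 (0.28) while both arms lie below it.

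Clustered histone genes were the list in which the arms differed most, with medians of 0.08 in the control arm and 1.76 in the Kap1 KD arm. Of 38 tested, 6 were called higher in both arms. Without Kap1 KD replicate 2, the library that stood apart above, the median was 0.17 over 38 tested genes. Without control replicate 2 the median was 2.17, and without either replicate 1 sample it was 1.41, over 55 tested genes each. With 1 sample left out, a gene can pass the filter on low counts through 1 library. Members can thus have entered these fits only through Kap1 KD replicate 2, where they are high. These transcripts lack a poly(A) tail, and Hist1h4h, a histone H4 gene, had 0.251 and 0.211 CPM in replicate 1 and 0.544 and 1.73 in replicate 2.

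Markers of other liver cell types differed in level. The stellate cell and fibroblast marker Dcn (1227 to 1700 CPM) and the cholangiocyte markers Spp1 (96.3 to 148 CPM), Krt7 and Sox9 (28.7 to 40.2 CPM) were expressed in every library. Leukocyte and macrophage markers had at most 7.42 CPM (Cd68), with Csf1r at 1.04 and 0.892 CPM in replicate 1 and 3.22 and 2.05 in replicate 2, and Ptprc and Emr1 at or below 0.171 CPM in every library. Of 4 tested in that list, Csf1r and Cd68 were called higher in the first fit, and Csf1r and Lyz2 (at most 0.705 CPM) after adjustment. Without Kap1 KD replicate 1 the first fit called 0 of them. Their part in the inflammatory genes was not tested. Endothelial markers had 0 of 2 tested called. The samples are an established hepatoma line rather than liver tissue. In its bulk RNA, fewer cells that express a marker and less RNA per cell cannot be told apart. Of the 5 stellate cell and fibroblast markers tested, 2 were called lower (1 after adjustment), with Col3a1 under 1 CPM in every library and Dcn not called. Among 6 cholangiocyte markers tested, 2 were called lower in each fit, the keratins Krt7 and Krt19, while Sox9, Spp1 and Epcam were not called.

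Genes of chromosome 16 lay higher in replicate 2 in both arms of the adjusted fit. The median over its 428 genes was 0.19 in the control arm and 0.17 in the Kap1 KD arm, whereas the medians of the other nuclear chromosomes over both arms lay between -0.02 and 0.09. Without the adjustment its median was 0.02. In windows of 10 Mb with at least 15 genes, chromosome 16 had 7 medians from 0.133 to 0.285, all above 0.1, as were 43 of 226 windows (19%) on the other nuclear chromosomes. Of its genes 60.7% lay above 0 in both arms, against 45% of other nuclear genes. The chromosome was noticed in these data, so no test was made.

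**Figure D5:**
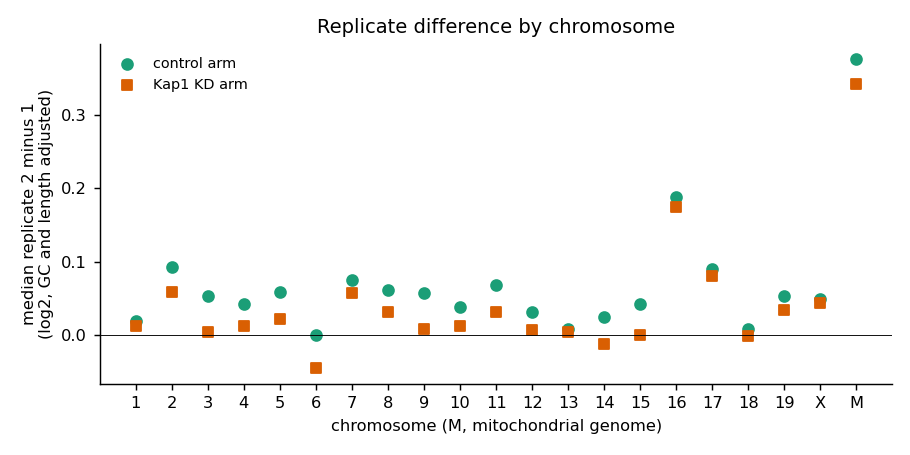
Median difference of replicate 2 minus replicate 1 (y axis, log2, adjusted for GC content and length) over the tested genes of each chromosome (x axis) in the control arm (circles) and in the Kap1 KD arm (squares). Chromosome 16 lies at 0.19 and 0.17 and the mitochondrial genome (M) at 0.38 and 0.34, above the other chromosomes.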

How the data were processed

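Polyadenylated RNA was made into libraries with a stranded TruSeq kit per the labels. The authors aligned reads to mm9 with TopHat2 2.0.11 and deposited unnormalised read counts per Ensembl gene from HTSeq 0.6.1; the strand setting of the counting is not given in the sources used here, so overlapping and antisense genes can share reads. No correction for base composition is part of these counts. The table has 4 columns of counts, all mapped to samples, and 0 others. The small RNA tables were not used here.

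Symbols, positions, exonic length and GC content came from the mm9 annotation (21806 of 21915 genes matched). Genes passing filterByExpr were tested with edgeR 4.0.16 in R 4.3.3 (TMM, quasi-likelihood F test, terms shRNA arm and replicate, Benjamini-Hochberg). The study's methods give no test of replicates. Each standard error was taken as the absolute log2 difference over the root of its F statistic. Within-arm differences used log2 CPM with a prior count of 2. GC content and length offsets came from loess (span 0.3) per library. DESeq2 1.42.0, other scalings, filters and designs, and leaving out each sample were alternatives. The scripts were tested on simulated data.

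Genes named are Hnf4a, Actb, Trim28, the 10 largest changes each way called in both arms (protein-coding, mean of at least 5 CPM), and per list up to 4 called members with the largest change, or the most expressed ones where at most 1 was called; any other gene was picked with its values in view. The members and the 49 lists were chosen with earlier results of these data known. The same-numbered samples of the 2 arms deviated together across genes, and the Kap1 contrast carried the replicate number as a block. Replicate numbers were partly inferred from titles. The lowest total was 41566888 counts, so genes under 1 CPM rest on small counts. A few single-gene results are not reported here.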

Additional observations from a re-analysis of the deposited data

Results flagged for a closer look

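Trim28, the gene of KAP1, went opposite ways in the 2 arms before adjustment. Replicate 2 then lay above replicate 1 by 0.333 on the log2 CPM scale in the control arm (456 and 575 CPM). In the Kap1 KD arm it lay below replicate 1, by the value -0.424 (106 and 78.9 CPM). After adjustment for GC content and length, the difference was 0.053 in the control arm, near 0, and -0.85 in the Kap1 KD arm. Each arm holds 1 sample of each replicate number, a model with a separate replicate term per arm has no residual degrees of freedom, and the difference between the arms was therefore not tested. Trim28 was lower in the Kap1 KD sample than in the control sample of both replicates.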

How the results depend on the processing

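Counts were read as changed when they moved by more than 1.5 times. With 1 sample left out, only 1 arm keeps both replicates. For those fits, "in both arms" stands for the fold within that arm alone, a looser call than in the first fit. The first fit called 1284 genes higher, 2464 lower, and 833 and 2058 in both arms. With glmTreat against 1.5-fold these were 439, 1330, 396 and 1318. With GC content and length offsets they were 802, 947, 565 and 671, and the share of calls that were higher went from 34.3% to 45.9%. Leaving out 1 sample, with no block, gave 355 to 1670 higher, 977 to 2440 lower, 347 to 1393 higher in both arms and 961 to 2156 lower in both arms. The lowest of each range was without control replicate 1 and the highest without control replicate 2. Without Kap1 KD replicate 1 they were 774, 1768, 528 and 1646, and without Kap1 KD replicate 2 768, 1675, 667 and 1638. With DESeq2, the other scalings, the other filters or no shRNA block, all 4 counts stayed within 1.5 times.

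The Kap1 contrast depends on the pairing by replicate number: 631 genes were called with the replicate block, and 0 without it in edgeR, where 185 had an unadjusted p under 0.05. DESeq2 with the block called 234. Same-numbered samples of the 2 arms deviated together across genes (r = 0.796 between the arms' replicate differences), but there are only 2 pairs.

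Some values changed sign. With the offsets the medians became 0.051 (mitosis), 0.030 (cytosolic and mitochondrial chaperones), -0.013 (FOXO and insulin-responsive genes), -0.020 (ribosome biogenesis and MYC targets), 0.029 (stellate cell markers) and 0.28 (mitochondrially encoded), and the log2 changes -0.11 (Gapdh), 0.14 (Hspa4l), 0.093 (Chordc1), -0.011 (Fgfr4), 8.7e-06 (Trp53inp1), -0.012 (Trib1) and 0.27 (Acadl). With no filter on low counts the medians were 0.0036 for fatty acid synthesis and 0.021 for the chaperones, and with a mean of at least 1 CPM 0.0096 for mesenchymal genes and 0.21 for bile acid genes. Over the fits that leave out 1 sample, the values of cholesterol synthesis (-0.027 to 0.27), fatty acid synthesis (-0.20 to 0.11), the chaperones (-0.059 to 0.033), plasma proteins (-0.070 to 0.69), bile acid genes (-0.55 to 0.13), the Notch pathway (-0.13 to 0.40), hepatocyte markers (-0.22 to 0.59), Trim28 (-1.82 to 1.62), Cdhr2 (-0.10 to 3.03), Fgfr4 (-0.39 to 0.99), and Jag1 (-0.40 to 0.075) spanned 0, and no shRNA block gave Trim28 0.22. The cause was not tested, beyond that fits without the block take in the Kap1 difference.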

Other observations

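Families grouped by symbol after the values were seen add a few patterns to the lists above. Over all tested genes 5.89% were called higher and 14.6% lower in both arms, and 4.0% and 4.75% after adjustment. Chemokine ligands had 4 of 16 tested genes called higher in both arms and 0 lower, and 7 and 0 after adjustment. Cxcl16, a membrane-bound chemokine, went from 42.0 and 52.4 CPM in replicate 1 (control and Kap1 KD) to 96.6 and 123 CPM in replicate 2, a log2 difference of 1.21 in the first fit and 1.20 after adjustment. Of 10 matrix metalloproteinases 4 were called higher and 1 lower in each fit, and Mmp13, a collagenase, had a difference of 0.61 that became 1.24. Among those called higher in each fit, Mmp3 and Mmp19 rest on small counts, with at most 1.07 and 0.962 CPM. Gpnmb, a glycoprotein of lysosomes and melanosomes that is not on the lysosome list, went from 113 and 84.9 CPM to 265 and 221 CPM. Hmox1, the haem-degrading enzyme, went from 18.9 and 21.9 CPM to 48.0 and 59.6 CPM. Mmp13 had 20.9 and 13.4 CPM in replicate 1 and 31.1 and 21.1 in replicate 2.

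Families of RNA-binding proteins had fewer calls after adjustment. Of 19 genes for heterogeneous nuclear ribonucleoproteins 5 were called lower and 0 higher (median -0.40), and 0 in either direction after adjustment (median -0.03). Zc3h genes, which encode CCCH zinc-finger proteins, had 6 of 18 called lower and 0 higher (median -0.38), and 0 after adjustment (median -0.19). SR splicing factors had 2 of 10 called lower and 0 higher (median -0.39), and 1 lower and 0 higher after adjustment (median 0.13). The only member called after adjustment was Srsf2, which was lower in both fits, at -1.63 and -1.42.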
